A study of Bos taurus with 4 samples.

Results

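The genes described here encode the RAB and ARF families of small GTPases and the proteins that switch them on and off. They were picked by symbol, from a platform annotation that pairs probe sets with genes, with earlier results of these data known. Probe sets with a single gene symbol beginning RAB and a number, ARF, ARL or TBC1D and a number, SAR1, ARFGAP, ARFGEF, ARFIP, RABGAP, RABEP or GDI, or equal to RABIF, were taken. This gave 87 genes on 119 probe sets, of 9155 named genes on 13292 probe sets. The GTPases themselves made up 50 of the 87, namely 39 Rabs and 11 ARF, ARL and SAR1 proteins, and the other 37 were regulators and effectors. A symbol is not a function, and a few members, such as the centriolar protein gene TBC1D31, carry the name for a domain or a binding partner only.

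Gamma delta T cells, lymphocytes that are abundant in the blood of young cattle, were sorted to a purity above 97%. Cells of 2 calves, numbered 301 and 303, were rested overnight and then held for 4 h with an apple polyphenol extract (APP, 42.2 µg/ml) or with phosphate-buffered saline (PBS), the vehicle. Each calf gave 1 Affymetrix array per treatment, so there were 2 arrays with APP and 2 with PBS. The labels give the calves' age as 1 to 6 months, while the design text calls them neonatal, and neither the content of the extract nor its endotoxin level is given in the sources used here.

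Small GTPases of these families act as molecular switches on membranes. Bound to GTP they sit on one membrane and recruit effectors such as coats, tethers and motors. Exchange factors (GEFs) load them with GTP, GTPase-activating proteins (GAPs, for Rabs mostly proteins with a TBC domain) turn them off, and GDIs carry prenylated Rabs through the cytosol. Rabs give organelles their identity, ARFs and SAR1 start the budding of coated vesicles, and in T cells these routes recycle the antigen receptor, carry cytokines to the surface and release cytotoxic granules.

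Values are on a log2 scale on which 0 is the median of a probe set across the 4 arrays, and genes with several probe sets are given as their mean. Changes (APP minus PBS) can be read from them and levels cannot, so it is unknown which members lay near background, and no member's level could be set against another's. Values of 2 arrays are given in the order calf 301, calf 303. The test was limma's with the calf as a block, adjusted over all 9155 genes, and "rose" or "fell" means an adjusted p under 0.05. Among cell type markers, 5 of 7 listed for gamma delta T cells were measured, with CD3G (-0.47) and CD163L1 (-1.08) falling and TARP, CD3D and CD3E not passing. Of 4 monocyte markers, 3 measured, CD68 (2.31) and CD14 (0.46) rose and CSF1R (0.13) did not pass. Of 4 B cell markers the 2 measured fell (-0.80 for CD79A and -0.56 for MS4A1). Of 3 NK cell markers KLRD1 and NKG7 rose by 0.30 each, and NCR1 (-0.10, with -0.31 and 0.12 in the calves) did not pass. The part of these shifts in the results below was not tested, and their summed levels could not be computed. In such pools, fewer cells of a type and less RNA per cell cannot be told apart.

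With APP, 13 of the 87 members rose and 34 fell, while 40 did not pass. That is 14.9% rising, against 23.0% of all genes, and 39.1% falling, against 29.7% of all genes. Role groups below are small, and their counts are to be read beside these shares of all genes. The median change of the members was -0.07, with -0.10 in calf 301 and -0.13 in calf 303, and that of all genes was 0.01. The members' median size of change, 0.33 regardless of sign, was close to the 0.32 of all genes. These counts hold for the arrays as deposited. When arrays were scaled to the bacterial hybridization controls, every mean APP change dropped by 0.85, and 1 member rose and 79 fell (1.15% and 90.8%, against 3.26% and 89.8% of all genes). In percentage points, the gap in falls between members and all genes was smaller in each unblocked fit that left out an array. Without the PBS array of calf 303, 14.9% of members fell, against 14.3% of all genes, and without the PBS array of calf 301, 9.20% of members rose, against 8.67% of all genes. Of the 13 rises, with scaling to the controls, SAR1A, ARF3, RAB19 and TBC1D7 stayed above 0 and the other 9 lay below it, so directions below are relative to the bulk of genes.

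All 47 members that passed had both APP arrays on the same side of both PBS arrays. Passing on these same arrays favours such a split, so nothing is read from it. Over all members, both APP arrays lay above both PBS arrays for 26 (29.9%, against 36.6% of all genes) and below them for 41 (47.1%, against 37.2%). A change of at least 2-fold in both calves was seen as a rise for SAR1A alone (1.15% of members, against 3.50% of all genes). As a fall it was seen for ARFGAP3, RAB4A, TBC1D31 and ARFIP1 (4.60%, against 6.29%). The calves moved the same way for 72 members and opposite ways for 15. None of the 15 passed, but changes of opposite sign could hardly pass this test in any gene, so nothing is read from that. The matching counts over all genes were not taken.

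**Figure D1:**
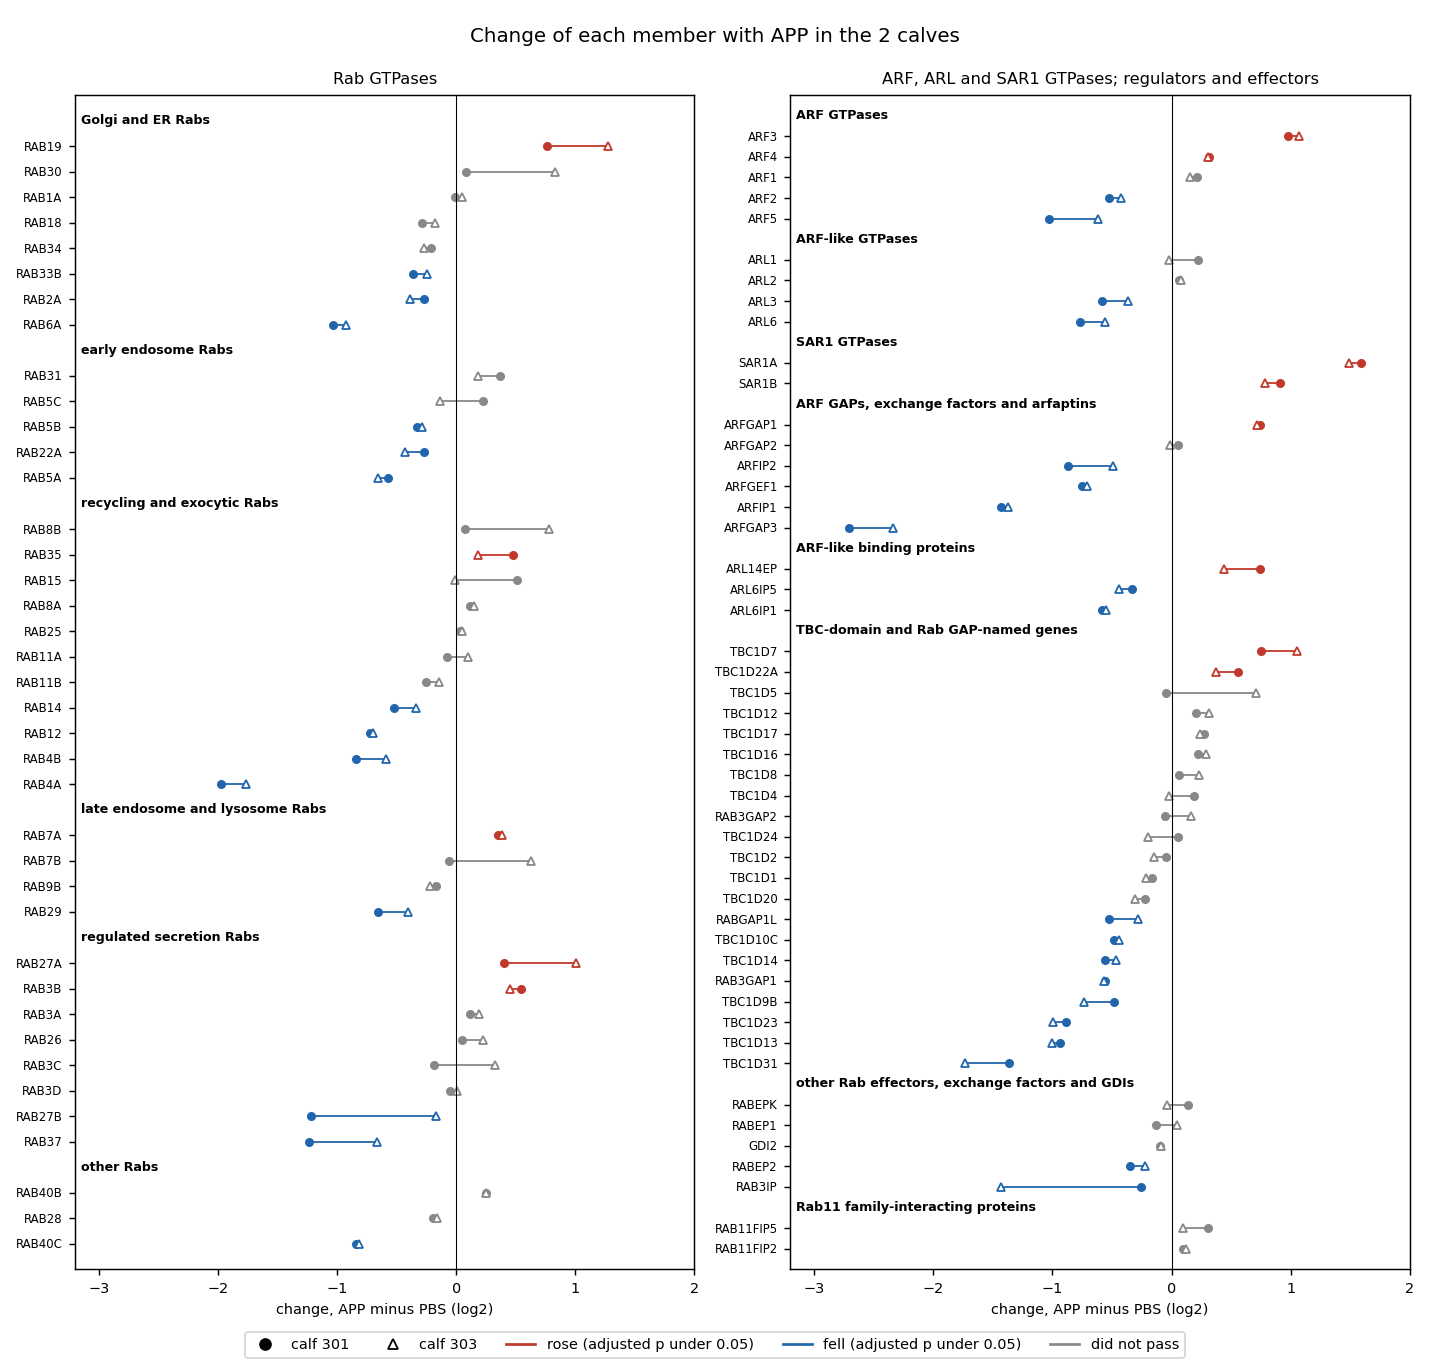
Change with APP (APP minus PBS, log2, x axis) of all 87 members, grouped by role, in calf 301 (filled circle) and calf 303 (open triangle). Changes run from -2.52 for ARFGAP3 to 1.54 for SAR1A in the mean of the calves, as deposited, and scaling to the hybridization controls would lower the points of calf 301 by 0.78 and those of calf 303 by 0.93.

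Both SAR1 genes rose. SAR1 starts the COPII coat, which buds vesicles carrying new proteins out of the endoplasmic reticulum (ER). SAR1A stood at 0.55 on both APP arrays, against -1.05 and -0.94 on the PBS arrays. The APP arrays lay far above the PBS arrays, and the rise was 2.91-fold (log2 change 1.54 ± 0.07, SD, n = 2 calves, adjusted p = 3.93e-05). SAR1B stood at 0.54 and 0.26 with APP, against -0.37 and -0.52 with PBS, again without overlap. It rose 1.80-fold (0.85 ± 0.09, adjusted p = 0.000411), and its probe sets gave 0.89 and 0.81. With scaling to the hybridization controls the change of SAR1A was 0.69 and that of SAR1B -0.0016. SAR1A was the largest rise among all 87 members, at percentile 98.1 of all genes.

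The ARF GTPases, which recruit COPI and clathrin adaptors to the Golgi, split. ARF3, a class I ARF of the trans-Golgi, stood at 0.42 and 0.39 with APP, against -0.55 and -0.69 with PBS. It rose 2.03-fold (1.02 ± 0.06, SD, n = 2 calves, adjusted p = 0.000173), with a gap of about 1 log2 unit in each calf. ARF4 rose by 0.31 in each calf (adjusted p = 0.0304), but did not pass in the fit over probe sets (adjusted p = 0.0619). ARF1, the main COPI recruiter and a close relative of ARF3, had 0.14 and 0.08 with APP, against -0.07 on both PBS arrays. Its arrays did not overlap, but the difference of 0.18 did not pass (adjusted p = 0.15), nor did any of its 3 probe sets (0.09 to 0.31). ARF5, a class II ARF, moved the other way, with -0.77 and -0.34 on APP arrays, against 0.26 and 0.28 on PBS arrays. It fell 1.77-fold (-0.82 ± 0.30, adjusted p = 0.00146), and ARF2 fell by 0.47 (adjusted p = 0.0057). With scaling to the hybridization controls the change of ARF3 was 0.17 and those of the other 4 ARFs lay below 0.

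Regulators of ARFs held the largest fall of all members. ARFGAP3, a GAP that acts on ARF1 in COPI transport, stood at -1.88 and -1.60 with APP, against 0.82 and 0.73 with PBS. This was 5.74-fold lower with APP (-2.52 ± 0.26, SD, n = 2 calves, adjusted p = 1.67e-05), and both probe sets showed it (-2.73 and -2.31). The related GAP ARFGAP1 went up instead, with 0.48 and 0.20 on APP arrays, against -0.26 and -0.51 on PBS arrays. That was a rise of 0.73 ± 0.02 (adjusted p = 0.000732), with 0.68 and 0.77 for its probe sets, or -0.12 when scaled to the hybridization controls. ARFGAP2 had changes of 0.05 and -0.01 (mean 0.02, adjusted p = 0.879). So the 3 ARFGAP genes, whose proteins share a catalytic domain, had a fall, a rise and a change near 0 on the same arrays.

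The arfaptins ARFIP1 and ARFIP2, which bind GTP-loaded ARF and ARL1 on the trans-Golgi and bend membranes with a BAR domain, both fell. ARFIP1 stood at -0.97 and -0.71 with APP, against 0.46 and 0.66 with PBS, a 2.64-fold fall that differed little between the calves (-1.40 ± 0.04, SD, n = 2 calves, adjusted p = 5.08e-05). ARFIP2 stood at -0.54 and -0.27 with APP, against 0.33 and 0.22 with PBS (-0.68 ± 0.27, adjusted p = 0.00296). ARFGEF1, also called BIG1, the exchange factor that loads ARF1 at the trans-Golgi, stood at -0.49 and -0.34 with APP, against 0.26 and 0.37 with PBS (-0.73 ± 0.03, adjusted p = 0.00073). In this group of 6, 4 fell, 1 rose and 1 did not pass, where 29.7% of all genes fell and 23.0% rose.

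Of 4 ARF-like GTPases, 2 fell and 2 did not pass, where 29.7% of all genes fell and 23.0% rose. ARL6, which brings the BBSome coat to membranes at the base of cilia, stood at -0.57 and -0.25 with APP, against 0.20 and 0.31 with PBS (-0.66 ± 0.15, SD, n = 2 calves, adjusted p = 0.0017). ARL3, which releases lipid-modified cargo from its carriers, fell by 0.48 (adjusted p = 0.00742), but its probe sets differed, with -1.07 (adjusted p = 0.00154) for one and 0.12 (adjusted p = 0.413) for the other. ARL1, a Golgi GTPase that recruits golgins, and ARL2, a tubulin-folding cofactor, changed by 0.10 and 0.07 and did not pass. The binding proteins moved both ways. ARL6IP1, which shapes ER tubules, had -0.31 on both APP arrays, against 0.28 and 0.24 on the PBS arrays (adjusted p = 0.00241), and ARL6IP5 fell by 0.38. ARL14EP, named as an effector of ARL14, had 0.54 and 0.17 with APP, against -0.21 and -0.28 with PBS, a rise of 0.59 (adjusted p = 0.00394) or -0.26 when scaled to the hybridization controls.

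**Figure D2:**
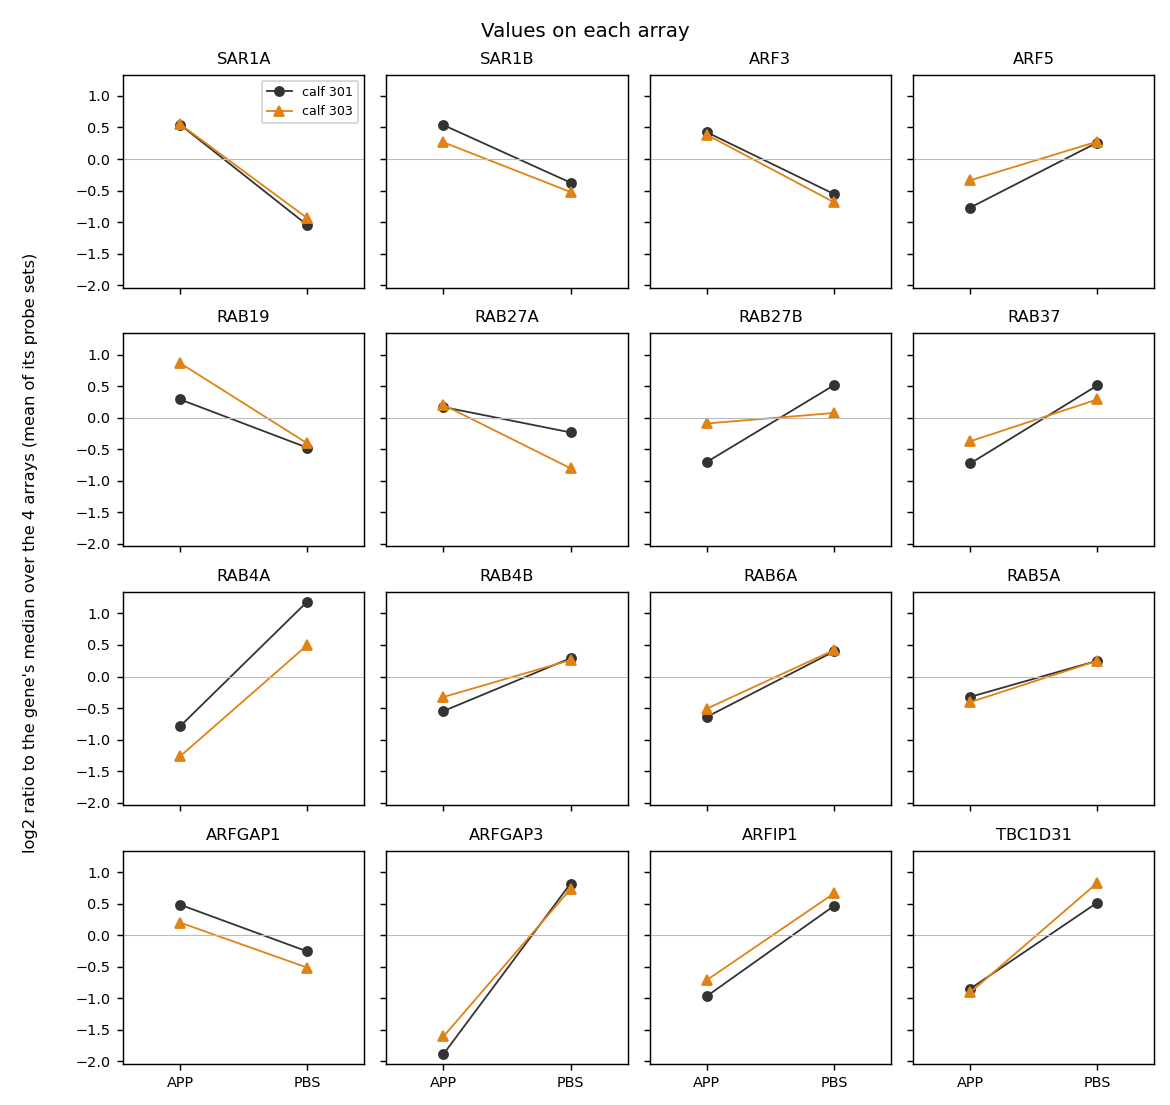
Log2 ratio of 16 members on each array (y axis), APP left of PBS, with a line for each calf. SAR1A, SAR1B, ARF3, RAB19, RAB27A and ARFGAP1 lay higher on both APP arrays and the other 10 lower, as deposited. When scaled to the hybridization controls, SAR1B, RAB27A and ARFGAP1 lay below 0 in their change.

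Among the 39 Rab GTPases, 5 rose, 14 fell and 20 did not pass, with a median change of -0.02 as deposited. Beside them, 23.0% of all genes rose and 29.7% fell. The largest Rab change was in the recycling route. RAB4A, which sorts cargo from early endosomes straight back to the surface, stood at -0.79 and -1.27 with APP, against 1.19 and 0.50 with PBS. It fell 3.65-fold (-1.87 ± 0.15, SD, n = 2 calves, adjusted p = 2.52e-05), at percentile 0.945 of all genes. Its paralogue RAB4B had -0.55 and -0.33 with APP, against 0.29 and 0.26 with PBS, and fell 1.64-fold (-0.71 ± 0.18, adjusted p = 0.0014). RAB12 (-0.71), linked to the degradation of recycled receptors, and RAB14 (-0.43), which works between Golgi and endosomes, also fell.

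The slower recycling route through RAB11 did not show such a change. RAB11A had changes of -0.08 and 0.10 (mean 0.01, adjusted p = 0.931), and its APP and PBS arrays overlapped. RAB11B (-0.20), the epithelial RAB25 (0.04) and the RAB11-binding adaptors RAB11FIP2 (0.11) and RAB11FIP5 (0.20) did not pass either. The exocytic RAB8A (0.13) did not pass, nor did RAB15 (0.25). RAB8B had -0.10 and 0.77 with APP, against -0.17 and -0.01 with PBS, so that its mean change of 0.43 rested on calf 303 and did not pass (adjusted p = 0.0641). RAB35, a recycling Rab of the plasma membrane, rose by 0.33 (adjusted p = 0.0418), with 0.64 for one probe set and 0.02 for the other, or -0.52 when scaled to the hybridization controls. In all, 4 of the 11 recycling and exocytic Rabs fell, 1 rose and 6 did not pass, where 29.7% of all genes fell and 23.0% rose.

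Early endosomes are marked by RAB5. RAB5A stood at -0.32 and -0.41 with APP, against 0.25 on both PBS arrays, and fell 1.53-fold (-0.61 ± 0.06, SD, n = 2 calves, adjusted p = 0.00173). RAB5B fell by 0.31 (adjusted p = 0.031), although only 1 of its probe sets did (-0.76, against 0.14 for the other). RAB5C had changes of opposite sign, 0.23 and -0.13, and did not pass (adjusted p = 0.758). RAB22A, a RAB5 relative on endosomes, fell by 0.35 (adjusted p = 0.0231) and RAB31 (0.28, adjusted p = 0.0541) did not pass. For RAB22A 1 probe set fell (-0.54) and the other did not pass (-0.16, adjusted p = 0.33). With no replicate block RAB22A lost its call (adjusted p = 0.0508). So 3 of 5 early endosome Rabs fell, where 29.7% of all genes did, and none rose.

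RAB7A, the switch of late endosomes and lysosomes, went the other way. It stood at 0.17 and 0.14 with APP, against -0.18 and -0.25 with PBS, and rose 1.29-fold (0.37 ± 0.03, SD, n = 2 calves, adjusted p = 0.0152). The rise came from 1 probe set (0.72, against 0.02 for the other) and turned to -0.48 when scaled to the hybridization controls. RAB29, a Golgi and lysosome Rab known as an activator of the kinase LRRK2, had -0.35 and -0.22 with APP, against 0.31 and 0.19 with PBS, and fell by 0.53 (adjusted p = 0.00524). RAB9B (-0.19) did not pass, nor did RAB7B, whose changes were -0.06 and 0.63.

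At the Golgi and ER, RAB6A fell. This Rab drives transport from endosomes through the Golgi and to the ER, and it stood at -0.64 and -0.51 with APP, against 0.40 and 0.42 with PBS (1.98-fold, -0.98 ± 0.08, SD, n = 2 calves, adjusted p = 0.000211). Both probe sets fell (-1.15 and -0.82). RAB2A (-0.33) and RAB33B (-0.30), which act in ER to Golgi traffic and within the Golgi, fell by less. In the fit over probe sets neither passed (adjusted p = 0.0539 and 0.0705). RAB1A, needed for vesicles from the ER to fuse with the Golgi, had changes of -0.01 and 0.05 (adjusted p = 0.879), beside the rise of the SAR1 genes that act one step earlier. RAB19 was the Rab that rose the most, with 0.29 and 0.87 on APP arrays, against -0.47 and -0.41 on PBS arrays (2.02-fold, 1.02 ± 0.36, adjusted p = 0.000812). RAB18 (-0.23), RAB34 (-0.24) and RAB30 (0.46, with 0.08 in calf 301 and 0.83 in calf 303) did not pass.

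Rabs of regulated secretion moved in both directions. RAB27A, needed for cytotoxic granules to dock at the membrane of killer lymphocytes, stood at 0.17 and 0.20 with APP, against -0.23 and -0.80 with PBS. It rose 1.63-fold (0.70 ± 0.43, SD, n = 2 calves, adjusted p = 0.00676) by both probe sets (0.62 and 0.79). Unblocked and without the PBS array of calf 303, the change of RAB27A was 0.42 and did not pass (adjusted p = 0.123), nor did it without either APP array (adjusted p = 0.0967 and 0.0974). Scaled to the hybridization controls, its change was -0.15. Its paralogue RAB27B had -0.70 and -0.09 with APP, against 0.52 and 0.08 with PBS. It fell, with changes of -1.22 in calf 301 and -0.17 in calf 303 (adjusted p = 0.0354), a gap that was the second widest of all members. The call was lost with no replicate block (adjusted p = 0.0825), with centring on the array median (adjusted p = 0.0544), in the fit over probe sets (adjusted p = 0.0604) and without the APP array of calf 301 (change -0.39, adjusted p = 0.232) or either PBS array. RAB37, a granule Rab best known from mast cells, stood at -0.72 and -0.37 with APP, against 0.51 and 0.29 with PBS, and fell 1.93-fold (-0.95 ± 0.41, adjusted p = 0.00155). RAB3B, of the synaptic vesicle family, rose by 0.50 (adjusted p = 0.00451), which became -0.35 with the arrays scaled to the hybridization controls. RAB3A, RAB3C, RAB3D and RAB26 lay between -0.02 and 0.15 and did not pass.

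Of the remaining Rabs, RAB40C, which carries a SOCS box that recruits a ubiquitin ligase, stood at -0.42 and -0.50 with APP, against 0.42 and 0.31 with PBS. It fell 1.77-fold, nearly equally in both calves (-0.82 ± 0.02, SD, n = 2 calves, adjusted p = 0.000412). Its paralogue RAB40B changed by 0.25 in each calf (adjusted p = 0.0611) and RAB28 by -0.18, and neither passed. Members of one subfamily share coding sequence, and whether their probe sets share signal was not tested.

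The 21 genes named for a TBC domain or as Rab GAPs, not all of which have GAP activity, counted 8 falls, 2 rises and 11 that did not pass. Falls made up 29.7% and rises 23.0% of all genes. TBC1D31 fell the most of them, with -0.85 and -0.91 on APP arrays, against 0.52 and 0.83 on PBS arrays (2.93-fold, -1.55 ± 0.26, SD, n = 2 calves, adjusted p = 7.37e-05). TBC1D13, a GAP of RAB35, had -0.58 and -0.49 with APP, against 0.35 and 0.52 with PBS (-0.97 ± 0.05, adjusted p = 0.000211). TBC1D23, which lacks GAP activity and bridges golgins to endosome-derived vesicles, had -0.52 and -0.61 with APP, against 0.36 and 0.38 with PBS (-0.94 ± 0.08, adjusted p = 0.000257). In each of the 3 genes both APP arrays lay below both PBS arrays, as for 37.2% of all genes. Since 0 is the median across the arrays, such values lie on either side of 0 by construction. TBC1D9B (-0.61), TBC1D14 (-0.51), which regulates autophagy, and RABGAP1L (-0.40) also fell. In the fit over probe sets, 1 of TBC1D14 fell (-0.75, adjusted p = 0.00451) and the other did not pass (-0.27, adjusted p = 0.0964).

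The catalytic and noncatalytic subunits of the RAB3GAP complex differed in their calls. RAB3GAP1 fell by 0.56 in each calf (adjusted p = 0.00249), and RAB3GAP2 changed by -0.05 and 0.16 (adjusted p = 0.686). TBC1D10C, also called carabin and known in lymphocytes as an inhibitor of calcineurin and Ras, fell by 0.46 on average (adjusted p = 0.00579). Its 3 probe sets gave -1.12 (adjusted p = 0.0006), -0.26 (adjusted p = 0.104) and -0.02 (adjusted p = 0.914). The GAP of RAB1, TBC1D20, did not pass in the mean of its probe sets (-0.26, adjusted p = 0.0534), of which 2 fell (-0.54 and -0.51) and 1 stood at 0.25.

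The genes of this group that rose were TBC1D7 and TBC1D22A. TBC1D7 is a subunit of the TSC complex, which restrains mTORC1, and stood at 0.30 and 0.63 with APP, against -0.45 and -0.42 with PBS. It rose 1.87-fold (0.90 ± 0.21, SD, n = 2 calves, adjusted p = 0.000561), which became 0.05 with the arrays scaled to the hybridization controls. TBC1D22A rose by 0.47 (adjusted p = 0.00764), with 0.53 and 0.40 for its probe sets, or -0.39 when scaled. Without the APP array of calf 301 its change was 0.27 and did not pass (adjusted p = 0.217, unblocked). TBC1D5, the RAB7 GAP of the retromer coat, had -0.04 and 0.66 with APP, against 0.01 and -0.05 with PBS. Its change was -0.04 in calf 301 and 0.71 in calf 303, and the mean of 0.33 did not pass (adjusted p = 0.147). Leaving out an APP array moved it, unblocked, to 0.68 where calf 301's was dropped, which passed (adjusted p = 0.017), and to -0.018 where calf 303's was (adjusted p = 0.921). TBC1D1, TBC1D2, TBC1D4, TBC1D8, TBC1D12, TBC1D16, TBC1D17 and TBC1D24 lay between -0.19 and 0.26 and did not pass.

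**Figure D3:**
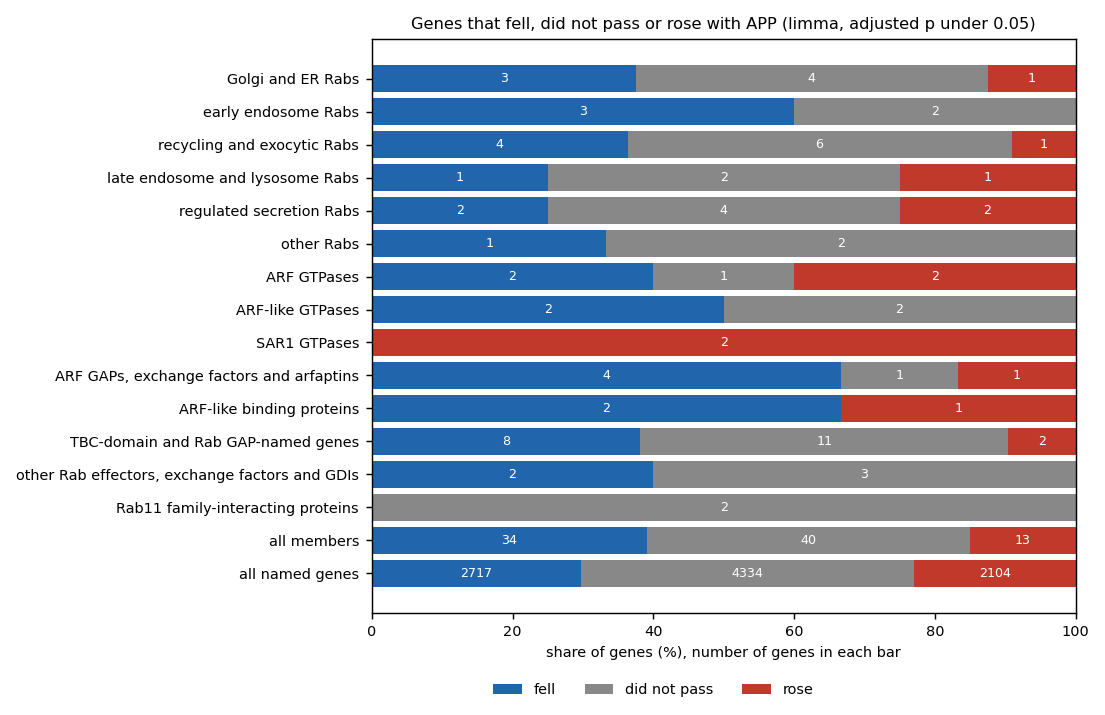
Share of genes (x axis, percent) that fell, did not pass or rose with APP in each role group, in all 87 members and in all 9155 named genes, with the number of genes in each bar. The members had 34 falls and 13 rises as deposited, and 79 and 1 when scaled to the hybridization controls, where 89.8% of all genes fell and 3.26% rose.

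Apart from the regulators described above, 5 members were Rab effectors, exchange factors or the GDI. Of these 2 fell and none rose, where 29.7% of all genes fell and 23.0% rose. RAB3IP, also called Rabin8, the exchange factor of RAB8, stood at -0.15 and -0.22 with APP, against 0.11 and 1.21 with PBS. The PBS array of calf 303 was far above the other 3, so the change was -0.26 in calf 301 and -1.43 in calf 303 (mean -0.84, adjusted p = 0.024), the widest gap between the calves of all members. Without that array the change was -0.29 and did not pass (adjusted p = 0.257, unblocked), and with all 4 arrays the unblocked fit did not pass either (adjusted p = 0.117). RABEP2, a rabaptin that binds RAB4 and RAB5, fell by 0.29 (adjusted p = 0.0427), and its 4 probe sets ran from -0.86 to 0.11. RABEP1, the better known rabaptin, changed by -0.04 and did not pass, nor did RABEPK (0.05). GDI2, the GDI found in most tissues, had -0.08 and -0.04 with APP, against 0.02 and 0.05 with PBS (-0.09, adjusted p = 0.438).

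A difference between the calves passed for 1 member, near the share of all genes. With 4 arrays, few calls do not show that the calves were alike. RAB4A was the member that passed for the calf, with a difference of -0.58 (calf 303 minus calf 301, adjusted p = 0.0487), so 1 of 87 did, against 1.69% of all genes. The differences between the calves in the other members ran up to 0.52 in size, with a median size of 0.10 over all members. The change with APP differed between the calves by more than 0.5 for 11 members. RAB3IP and RAB27B led these, followed by TBC1D5, and the differences were not tested, since the 4 arrays left no spare degree of freedom. Standard errors of the changes lay between 0.095 and 0.24, with a median of 0.097.

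Of the 87 members, 25 were measured by several probe sets, whose changes differed by 0.38 in the median. No member had a probe set that rose and another that fell. For ARL3 and TBC1D10C the probe sets differed by more than 1 log2 unit. ARFGAP3, ARFGAP1, SAR1B, RAB6A, RAB27A and TBC1D22A had every probe set past the threshold in the same direction. RAB11FIP5, RAB8B and TBC1D17 each had a probe set that rose, by 0.39, 0.77 and 0.44, within a gene that did not pass.

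**Figure D4:**
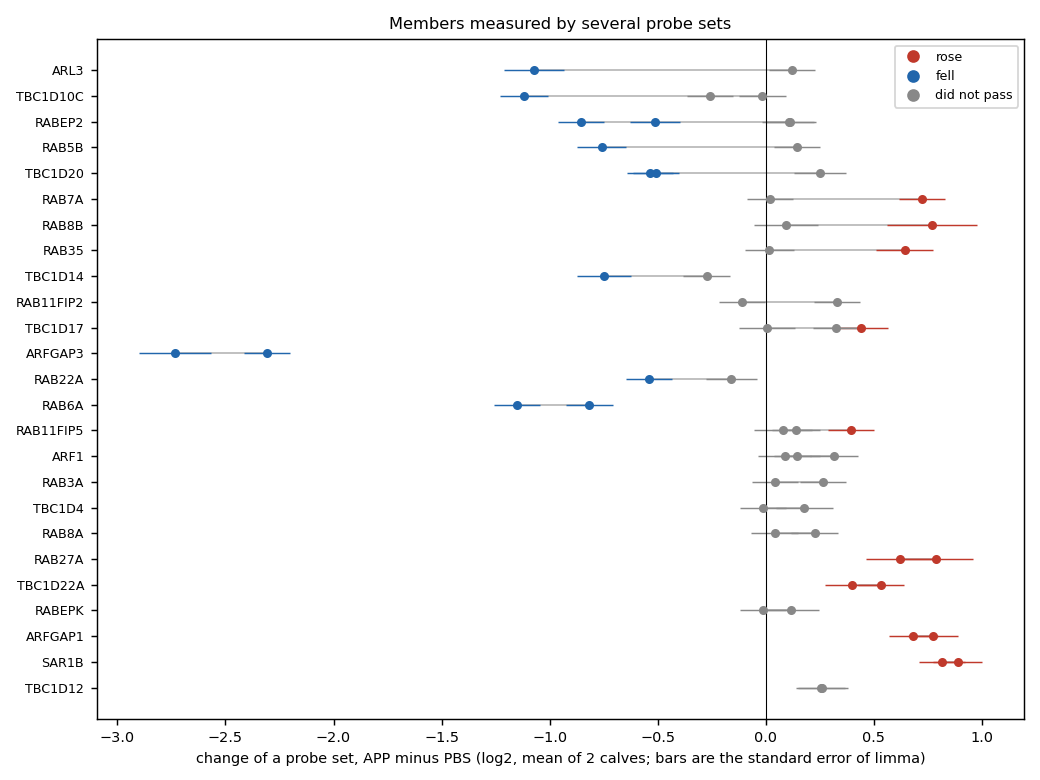
Change with APP of each probe set (x axis, log2, mean of 2 calves, bars are limma's standard error) for the 25 members with several probe sets, ordered by how far these differ. The probe sets of ARL3 (-1.07 and 0.12) and TBC1D10C (-1.12 to -0.02) lay farthest apart, and those of TBC1D12 coincided at 0.26, as deposited.

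Other genes of the same machinery were taken from 9 lists of genes outside the rule, of which 103 were measured. These lists too were chosen with earlier results of these data known. Of these 15 rose, 43 fell and 45 did not pass, with a median change of -0.16. The shares were 14.6% rising, against 23.0% of all genes, and 41.7% falling, against 29.7%, and the counts of single lists below are small beside these shares. Among exchange factors of Rabs, 10 of 25 fell (40.0%) and 7 rose (28.0%). ANKRD27, the RAB21 exchange factor also called VARP, fell in both animals (-2.28 and -2.02, adjusted p = 1.97e-05), as did TRAPPC2L, of the TRAPP complexes that load RAB1 and RAB11 (mean change -1.40, adjusted p = 5.08e-05). All 8 TRAPP subunits measured passed, 7 down and TRAPPC9 up by 0.42, a set picked out after its values were seen, from which nothing is read against the 29.7% of all genes that fell. DENND4A, an exchange factor of RAB10, rose by 1.22 (adjusted p = 0.000104).

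Of 21 Rab effectors outside the rule, 8 fell (38.1%) and 3 rose (14.3%), with EHBP1L1, an effector of RAB8, at -1.26 (adjusted p = 7.17e-05) and RILPL1 at -0.87 (adjusted p = 0.000489). In the list of Rab prenylation and escort genes 2 of 7 fell (28.6%, near the 29.7% of all genes). They were RABGGTA, a subunit of the enzyme that attaches the lipid anchor to Rabs (-1.04, adjusted p = 0.000158), and YIPF1 (-0.88, adjusted p = 0.000309). Of 2 further TBC-domain genes SGSM3 fell (-0.76, adjusted p = 0.000615) and the other did not pass.

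On the ARF side, 7 of 12 GAPs outside the rule fell (58.3%, against 29.7% of all genes) and 1 rose (8.33%), while all 4 exchange factors did not pass. RP2, the GAP of ARL3, fell by 1.54 (adjusted p = 3.67e-05). AGFG2 fell as well (-1.27, adjusted p = 0.00224, with -1.75 and -0.78 in the calves), while ASAP1 rose by 0.84. Of 9 COPI genes, whose coat ARF1 recruits, 3 fell (33.3%, near the share of all genes) and none rose, led by COPB1 (-0.58) and COPB2 (-0.56). Of 8 COPII genes measured 4 fell and 1 rose. SEC23A, the GAP of SAR1 within the coat, fell (-1.22, adjusted p = 0.000106), as did PREB, the SAR1 exchange factor (-0.58, adjusted p = 0.00414), whereas SEC31A of the outer coat rose by 0.30. Of 15 genes for adaptors that ARFs recruit, 8 fell (53.3%) and 3 rose (20.0%), with AP1S2 at -1.61 (adjusted p = 5.37e-05) and AP3B1 at -0.83 (adjusted p = 0.000412).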

How the data were processed

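RMA is the summary method that the submitters' processing notes name, without a version. The deposited values are linear ratios of each probe set's signal to its own median over the 4 arrays. That unit was read from the values, whose middle pair averaged between 0.98155 and 1.001 for each probe set. Levels cannot be recovered, so no filter on dim probe sets could be set.

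Ratios were taken to log2 with no added normalization. After 112 control probe sets had been left out, 24016 probe sets remained, of which 13292 carried 1 gene symbol in the platform annotation table, 86 several and 10638 none. Symbols were updated by identifier through RefSeq (ARS-UCD2.0, names only), in which 13263 of the 13292 were found. Probe sets of a gene were averaged, giving 9155 genes. APP was compared with PBS by limma 3.58.1 (R 4.3.3, lmFit and eBayes, two-sided) with the calf as a block, fitted over all genes and again over all probe sets, adjusted by Benjamini-Hochberg (threshold 0.05). Residual degrees of freedom were 1 and prior ones 5.86, and the procedure was tested on simulated data. Pairing comes from the sample titles, which give each calf's number under APP and under PBS, and the calf difference correlated between treatments across probe sets (r = 0.514).

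The members, their role groups and the pathway lists were chosen with earlier results of these data known. Members named were the 12 largest rises and 12 largest falls past the threshold, up to 2 per role group, RAB1A, RAB5A, RAB7A, RAB11A, RAB27A, ARF1, ARF6, SAR1A and GDI2 in any case, those whose probe sets differed by over 1, and the 3 with the widest gap between the calves. ARF6 was not analysed here. In each pathway list up to 2 genes were named. Other genes were named after their values had been seen. Alternatives were the fit without the block, scaling to the hybridization controls or the array median, other gene summaries, robust moderation, updated symbols and leaving out each array. Scan and hybridization batches are unknown here, and a batch that ran with treatment cannot be told apart from it.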

Additional observations from a re-analysis of the deposited data

Results flagged for a closer look

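The bacterial hybridization controls, which are normally added in equal amounts and are no part of the cells' RNA, were 0.85 higher on the APP arrays in the mean of their 7 probe sets (log2), by 0.78 in calf 301 and 0.93 in calf 303. Both probe sets shared by RAB9A, a late endosome Rab, and TCEANC were left out by the rule because they carry 2 symbols, and both rose, by 0.51 (adjusted p = 0.0117, limma over probe sets) and 0.60 (adjusted p = 0.034). Which of the genes gave the signal was not tested. A probe set shared by AIFM1 and RAB33A fell by 0.78 (adjusted p = 0.00211).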

How the results depend on the processing

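With no replicate block, 10 members rose and 25 fell (11.5% and 28.7%, against 15.3% and 23.6% of all genes), with 35 of the 47 calls kept, 12 lost and none gained. Among named members, RAB22A, RAB27B, RAB35, RAB3IP, RABEP2 and TBC1D22A lost their call there. Centring on the array median took the call from RAB27B among the named members, and robust moderation and updated symbols changed no count. Another setting left out probe sets whose names end in _a_at, _s_at or _x_at, among members all of them _a_at. It took out TBC1D31 and RABGAP1L, and the median of the 85 members left moved to -0.044. Leaving out 1 array at a time, unblocked, gave 5 to 10 rises, 13 to 25 falls and a median between -0.11 and -0.034. Rises and falls were 10 and 22 without the APP array of calf 301 (11.5% and 25.3% of members, against 12.2% and 18.8% of all genes), and 10 and 25 without that of calf 303 (11.5% and 28.7%, against 14.1% and 22.0%). They were 8 and 17 without the PBS array of calf 301 (9.20% and 19.5%, against 8.67% and 16.6%), and 5 and 13 without that of calf 303 (5.75% and 14.9%, against 8.14% and 14.3%). Of the 39 named members, 7 to 17 lost their call in these fits. Among these 39, ARF1, GDI2, RAB11A, RAB1A and TBC1D5 had no call to lose, since none of them passed with all arrays and the block. Scaled to the hybridization controls, 1 member rose, 79 fell (90.8%, against 89.8% of all genes) and the median was -0.93. The controls' own difference between the calves entered the spread of every gene. There the sign turned for ARF1 (-0.67), ARFGAP1 (-0.12), ARL14EP (-0.26), RAB11A (-0.84), RAB1A (-0.83), RAB27A (-0.15), RAB35 (-0.52), RAB3B (-0.35), RAB7A (-0.48), SAR1B (-0.0016), TBC1D22A (-0.39) and TBC1D5 (-0.52), by the construction of the scaling. Signal over background is unknown for these files, so a compressed change of a dim probe set cannot be told from a slight one.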
